A study of Mus musculus with 30 samples.

Results

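The comparison set KIT cells against THY1 cells of the mouse testis at postnatal day 14 (P14). Both groups came from C57BL/6 mice. P14 KIT cells were taken with magnetic beads carrying an antibody to KIT (CD117), and P14 THY1 cells with an antibody to THY1 (CD90.2). Each group was 1 RNA library, chosen by its label, so 2 of the 16 RNA libraries and of the 30 samples of the series entered the comparison, and all 20889 genes of the table were compared. The other RNA groups, 9 of 11, served only to place these levels. Among them P7 and P12 KIT and P7 and P12 THY1 stood for 2 libraries each, taken the same way at younger ages. Each of these groups held 1 deposited value per gene. The rest differed in age or in the label of the cells. They were THY1 cells at P0, with 2 libraries, and groups of 1 library each. The latter were cells labelled OCT4-GFP at P0 and again at P7, and P7 cells labelled either ID4-GFP or VASA with THY1. How many animals were pooled is not in the labels, and a bead enrichment keeps other cells, so each group is a mixed population. With 1 library a group there was no replicate, no error and no test, and every difference describes these 2 libraries alone.

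In the first days after birth the germ cells of the testis have not entered meiosis. Some of them become the stem cells that express receptors for the growth factor GDNF. Retinoic acid then turns undifferentiated spermatogonia into differentiating ones, which carry KIT, the receptor for stem cell factor. The first of these cells enter meiosis in the second week. They pass through leptotene and zygotene, in which programmed DNA breaks form and chromosomes pair, and then reach pachytene, in which the X and Y chromosomes are silenced and many genes for the later sperm are switched on. THY1 is a surface protein used to enrich undifferentiated spermatogonia, and it is also found on other cells.

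Levels are in FPKM, fragments scaled to transcript length and library size, a scale per length on which genes can be compared with each other. Differences are of log2(FPKM + 1), P14 KIT minus P14 THY1, which shrinks differences between low levels. A gene was counted at a log2 difference of at least 2, which is 4-fold, with at least 5 FPKM in the group where it was higher. Kit stood at 103 FPKM in P14 KIT cells and at 24.1 FPKM in P14 THY1 cells, a log2 difference of 2.05. Thy1 stood at 0.216 FPKM in P14 KIT cells and at 1.20 FPKM in P14 THY1 cells, low in both. Ddx4, which encodes the germ cell RNA helicase VASA, stood at 169 FPKM in P14 KIT cells and at 248 FPKM in P14 THY1 cells. Dazl, another germ cell gene, went the other way, at 931 FPKM in P14 KIT cells and 388 FPKM in P14 THY1 cells. Of 12 core germ cell genes 6 were higher in P14 KIT cells by 2-fold or more and 1 was 2-fold lower. Their median log2 difference was 0.46, with 6 above 0 and 6 below. The labels call both groups spermatogonia. Germ cell transcripts were abundant in both, and the P14 THY1 library also held the transcripts of later meiotic cells described below.

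Read depth is not in the FPKM values. From the spacing of values under 0.05 FPKM, 1 fragment was worth 1.73 times as much in P14 KIT as in P14 THY1, the commonest ratio at 134 of 539 genes, so low values in P14 KIT rest on fewer fragments. The noncoding RNA gene Rmrp was the highest of all genes, at 239973 FPKM in P14 KIT cells and 187846 FPKM in P14 THY1 cells. Both groups had 1 FPKM or more of 11609 genes, over which the median log2 difference was 0.10. Some genes with many near-identical copies were listed very low, such as Gapdh at 0.321 FPKM in P14 KIT cells and 0.0463 FPKM in P14 THY1 cells, and the values of such genes are uncertain.

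The difference between the groups was one-sided. Of 20889 genes, 42 were counted as higher in P14 KIT cells (0.201%) and 661 as lower (3.16%). At 2-fold with no minimum level, 963 genes were higher (4.61%) and 1950 were lower (9.34%). These are the shares to set beside each count of list members at 2-fold below. At 8-fold 3 genes were higher and 292 lower, and at 32-fold 1 was higher and 19 were lower. A pseudocount of 5 left 15 genes higher and 315 lower, and a pseudocount of 0.1 gave 75 higher, with lower genes in excess under both.

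**Figure D1:**
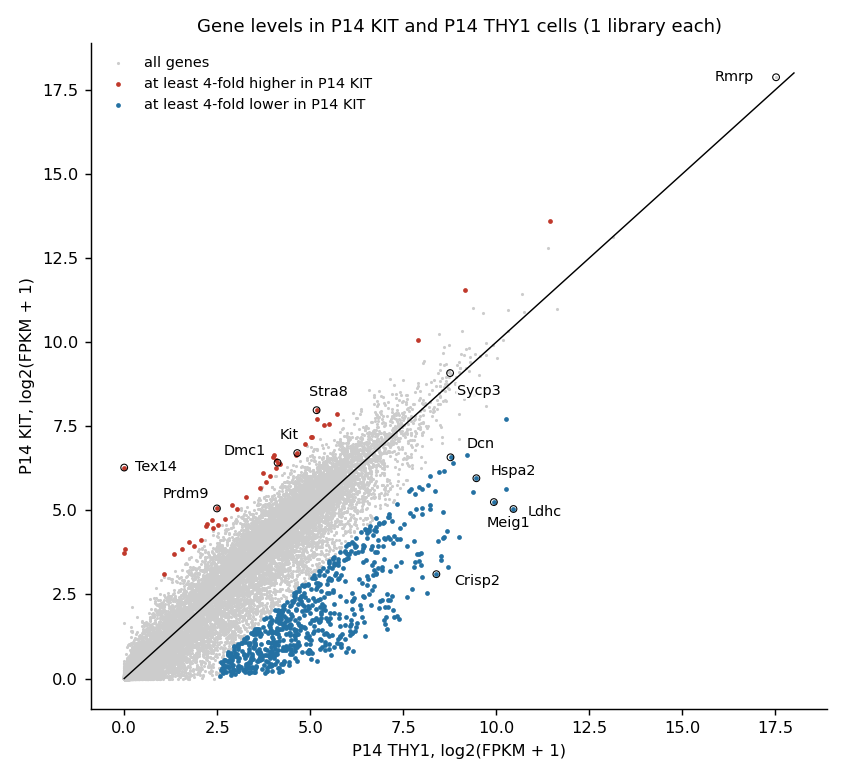
Level of each of 20889 genes in P14 KIT cells (vertical axis) and in P14 THY1 cells (horizontal axis), both as log2(FPKM + 1), with 1 library each. The 42 genes counted as higher in P14 KIT (red) are few beside the 661 counted as lower (blue), among them Ldhc, Meig1 and Hspa2. Some red points, Tex14 among them, also lie far from the line of equal levels.

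The 661 lower genes were next placed among the 11 groups. Their median level was 2.01 FPKM in P14 KIT cells and 25.9 FPKM in P14 THY1 cells, values that chose them, and between 0.906 and 2.32 FPKM in the 9 other groups. Among the 11 groups, 574 of the 661 were highest in P14 THY1, and 339 were under 5 FPKM in all 10 other groups. The rule asked for a high level in P14 THY1, so being highest there is in part built in. The same share over all genes was not counted. In P12 THY1 cells 226 of the 661 reached 5 FPKM. They made up 1.01% of the summed FPKM without Rmrp in P14 KIT cells and 10.9% in P14 THY1 cells. The level in P14 KIT cells was a median of 7.64% of that in P14 THY1 cells, with quartiles of 3.88% and 14.3% and a range of 0.883% to 24.2%, and no lower gene was listed at 0 in P14 KIT cells. For 422 of the 661 genes the P14 KIT level was above the P12 KIT level.

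The 42 higher genes had a median of 66.2 FPKM in P14 KIT cells and of 12.6 FPKM in P14 THY1 cells, values that chose them. Among the 11 groups 30 of them were highest in P14 KIT, which is in part built in as well. At P12, 2.7% of all genes were 2-fold or more higher in KIT cells; 33 of the 42 were among them, and 1 was 2-fold lower. These 33 were 78.6% of the genes higher at P14 and 5.85% of the genes 2-fold higher at P12. Of the 10015 genes that reached 5 FPKM in a P14 group, 4.61% were 2-fold higher at P12. Also at P12, 3.82% of all genes were 2-fold or more lower in KIT cells; 88 of the 661 were among them, 13.3% of the lower genes and 11% of the genes 2-fold lower at P12, and 12 were 2-fold higher. Their median log2 difference was -0.08 at P12 and -0.07 at P7. The comparisons at P7, P12 and P14 share no library.

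Genes that start meiosis were higher in P14 KIT cells. Of 11 genes of meiotic entry and DNA breaks, 6 were higher by 2-fold or more and 1 was 2-fold lower, with a median log2 difference of 1.38, against a median of 0.00 over all genes. Prdm9, the histone methyltransferase that sets where breaks form, stood at 32.3 FPKM in P14 KIT cells and at 4.63 FPKM in P14 THY1 cells. Mei1, needed for break formation, stood at 31.7 FPKM in P14 KIT cells and at 7.13 FPKM in P14 THY1 cells. Both were past 4-fold. Other break factors were past 2-fold but under 4-fold: Ccdc36, now named Iho1, had a log2 difference of 1.97, 4930486G11Rik (Mei4) one of 1.80 and 2410076I21Rik (Rec114) one of 1.38. Rec8, a meiotic cohesin subunit, had a log2 difference of 1.60. Spo11, which encodes the enzyme that makes the breaks, went the other way, with 6.75 FPKM in P14 KIT cells and 15.6 FPKM in P14 THY1 cells. Hormad1, a chromosome axis protein, stood at 88.0 FPKM in P14 KIT cells and 124 FPKM in P14 THY1 cells, which is under 2-fold. Stra8, the retinoic acid target that licenses meiotic entry and a member of the list of differentiating spermatogonia, stood at 251 FPKM in P14 KIT cells and at 35.0 FPKM in P14 THY1 cells, past 4-fold.

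The genes of the chromosome axis and the synaptonemal complex, the scaffold that holds paired chromosomes together, were abundant in both groups. Of 11 genes 3 were higher in P14 KIT cells by 2-fold or more and none 2-fold lower, and the median log2 difference was 0.44. Sycp3, an axis protein, stood at 540 FPKM in P14 KIT cells and at 432 FPKM in P14 THY1 cells. Sycp1, which forms the transverse filaments, stood at 189.6 FPKM in P14 KIT cells and at 195 FPKM in P14 THY1 cells. The 3 higher genes were Gm14160 (Rad21l), a cohesin subunit, at 95.7 FPKM in P14 KIT cells and 14.9 FPKM in P14 THY1 cells, Syce2 of the central element (log2 difference 1.49), and 4930447C04Rik (Six6os1), another central element protein (1.14). At P12 the same list had a median log2 difference of 1.30, with 10 of 11 genes 2-fold higher in KIT cells.

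The genes of strand exchange and crossover went both ways. Dmc1, the meiotic recombinase, stood at 84.4 FPKM in P14 KIT cells and at 16.4 FPKM in P14 THY1 cells, and Tex15, which is needed for recombinase loading, stood at 231 FPKM in P14 KIT cells and at 51.8 FPKM in P14 THY1 cells. Both were counted as higher. Tex11, an X-linked crossover gene, had a log2 difference of 1.80 and Msh5 one of 1.17. Cntd1, which matures crossovers in pachytene, was counted as lower, with 14.0 FPKM in P14 KIT cells and 72.9 FPKM in P14 THY1 cells. Psmc3ip, a partner of the recombinases, stood at 48.3 FPKM in P14 KIT cells and at 140.4 FPKM in P14 THY1 cells, and Msh4 had a log2 difference of -1.18. Over the 18 genes 4 were higher and 3 lower by 2-fold or more, and their median log2 difference was -0.14.

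Regulators and enzymes that are switched on in pachytene were lower in P14 KIT cells. Of 18 pachytene regulators 11 were lower and 2 higher by 2-fold or more, with a median log2 difference of -1.24. Hspa2, the meiotic HSP70 chaperone, stood at 61.0 FPKM in P14 KIT cells and at 706 FPKM in P14 THY1 cells. Ybx2, which binds and stores messenger RNA, stood at 30.0 FPKM in P14 KIT cells and at 376 FPKM in P14 THY1 cells. Psma8, a subunit of the testis proteasome, stood at 28.5 FPKM in P14 KIT cells and at 254 FPKM in P14 THY1 cells. The transcription factor Rfx2 was also counted as lower (log2 difference -2.32), and Brdt, a bromodomain protein that binds acetylated histones, had a log2 difference of -1.84. The 2 genes that were higher in P14 KIT cells were Taf7l, an X-linked part of the transcription machinery, at 377 FPKM in P14 KIT cells and 114 FPKM in P14 THY1 cells, and Trip13, which removes HORMAD proteins from chromosomes (log2 difference 1.08). Mybl1, the MYB factor of pachytene cells, was under 2-fold, at 23.4 FPKM in P14 KIT cells and 43.2 FPKM in P14 THY1 cells.

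The piRNA pathway, in which PIWI proteins and small RNAs silence transposons, was lower as well. Of 19 genes 7 were lower by 2-fold or more, 3 of them past 4-fold, and none was 2-fold higher, with a median log2 difference of -0.95. Piwil1 (MIWI), the PIWI protein of pachytene, stood at 8.32 FPKM in P14 KIT cells and at 119.8 FPKM in P14 THY1 cells. Tdrd6, a protein of the germ granules, stood at 1.01 FPKM in P14 KIT cells and at 41.3 FPKM in P14 THY1 cells, and Tdrd5 at 16.6 FPKM in P14 KIT cells and at 128 FPKM in P14 THY1 cells. Piwil2 (MILI), which is present from fetal germ cells on, was under 2-fold, at 123 FPKM in P14 KIT cells and 232 FPKM in P14 THY1 cells.

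**Figure D2:**
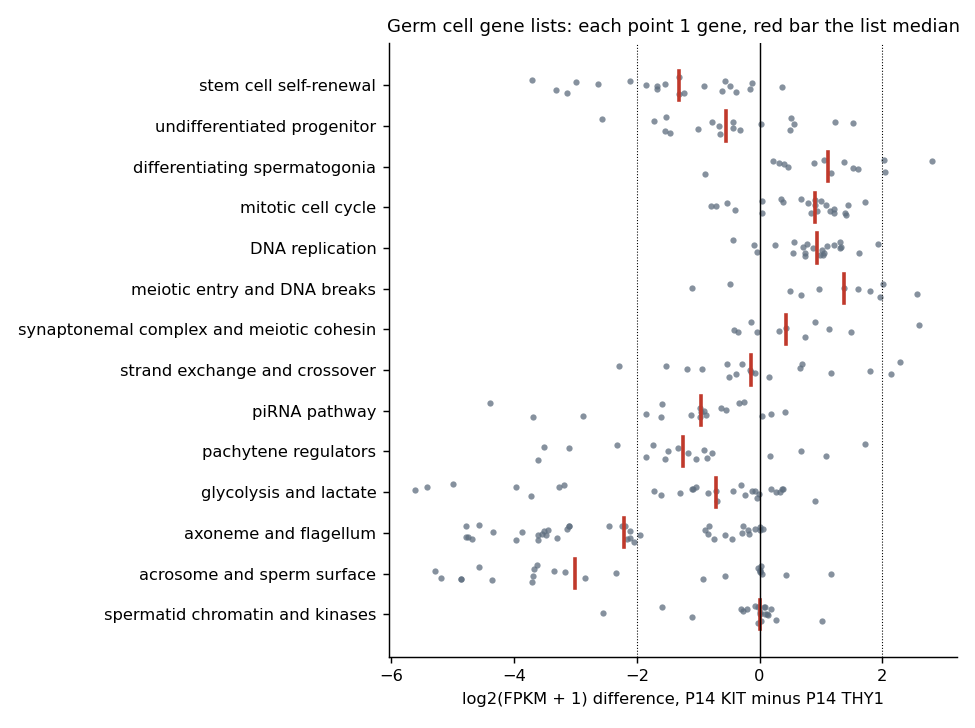
Log2(FPKM + 1) difference, P14 KIT minus P14 THY1, of each gene (points) of 14 germ cell lists, ordered from stem cells at the top to spermatids at the bottom. Red bars are list medians and dotted lines mark 4-fold. Medians are above 0 for differentiating, dividing and early meiotic lists and reach -3.00 for acrosome genes, while the spermatid list lies at 0.00, with 14 of its 20 genes under 1 FPKM in both groups.

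Among the germ cell lists, those of sperm structure had the most negative medians. Of 40 axoneme and flagellum genes 25 were counted as lower and none as higher (median log2 difference -2.21). Meig1, needed for building the flagellum, stood at 36.9 FPKM in P14 KIT cells and at 978 FPKM in P14 THY1 cells, and Rsph1, a radial spoke protein, at 17.6 FPKM in P14 KIT cells and at 512 FPKM in P14 THY1 cells. Ccdc65 (log2 difference -4.79), a part of the dynein regulatory complex, and Spag6 (-4.76), a central apparatus protein, were under 3 FPKM in P14 KIT cells. Of 24 acrosome and sperm surface genes 14 were counted as lower (median -3.00), among them Crisp2, a secretory protein of the acrosome, at 7.58 FPKM in P14 KIT cells and 334 FPKM in P14 THY1 cells, and Adam2, a surface protein of sperm, at 4.09 FPKM in P14 KIT cells and 119.8 FPKM in P14 THY1 cells. Genes of elongating spermatids were low in both groups: Prm1, a protamine, stood at 1.40 FPKM in P14 KIT cells and at 1.46 FPKM in P14 THY1 cells, and Tnp1, a transition protein, at 3.84 FPKM in P14 KIT cells and at 4.93 FPKM in P14 THY1 cells. The one abundant gene of that list, Hist1h1t, the linker histone of pachytene, stood at 210 FPKM in P14 KIT cells and at 1234 FPKM in P14 THY1 cells.

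Genes of glycolysis and lactate, testis isoforms among them, were lower too: of 29 genes 13 were lower by 2-fold or more, 7 past 4-fold, and none 2-fold higher (median log2 difference -0.71). Ldhc, the lactate dehydrogenase of meiotic and later germ cells, stood at 31.9 FPKM in P14 KIT cells and at 1409 FPKM in P14 THY1 cells, while Ldhb was level at 10.5 FPKM in P14 KIT cells and 10.6 FPKM in P14 THY1 cells. Pgam2 had the largest difference of all genes counted lower, with 2.43 FPKM in P14 KIT cells and 168 FPKM in P14 THY1 cells, and Pgk2, the testis phosphoglycerate kinase, stood at 0.733 FPKM in P14 KIT cells and at 26.3 FPKM in P14 THY1 cells. The glucose transporter gene Slc2a3 stood at 10.4 FPKM in P14 KIT cells and at 364 FPKM in P14 THY1 cells, and Slc16a7, a transporter of lactate and pyruvate, had a log2 difference of -3.27. Ldha was also lower, at 15.9 FPKM in P14 KIT cells and 222 FPKM in P14 THY1 cells. Slc16a1, another lactate transporter, was under 2-fold higher, at 59.8 FPKM in P14 KIT cells and 31.5 FPKM in P14 THY1 cells. 

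Among the 10 most strongly lower genes were Spink2, a protease inhibitor of the acrosome, at 4.78 FPKM in P14 KIT cells and 280.5 FPKM in P14 THY1 cells, and Fbp1, an enzyme of glucose synthesis, at 2.60 FPKM in P14 KIT cells and 160.0 FPKM in P14 THY1 cells. Hrasls5, Cmtm2a, Spata4, 1700011E24Rik and 1700123L14Rik completed them, all with a log2 difference between -5.59 and -5.33. Over the 11 groups, the levels most like those of Ldhc were of Ldhal6b, a related lactate dehydrogenase gene (Pearson's r of log2 levels 0.987), Fabp9 (0.984), Lass3 (0.984), 1700025K23Rik (0.984) and Ptchd3 (0.976), all highest in P14 THY1, the column that sets these values.

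**Figure D3:**
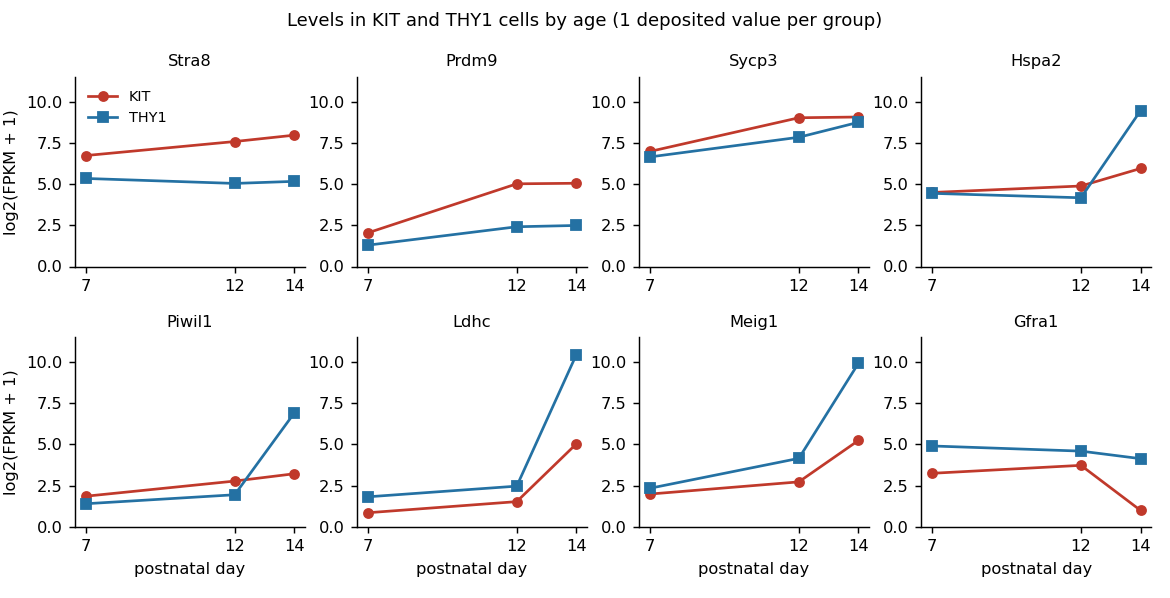
Levels as log2(FPKM + 1) at postnatal days 7, 12 and 14 in KIT cells (red circles) and THY1 cells (blue squares) for 8 genes, with 1 deposited value per point. Stra8 and Prdm9 are higher in KIT at all 3 ages, Sycp3 is close in both at P14, and Hspa2, Piwil1, Ldhc and Meig1 stand far higher in THY1 at P14.

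The younger groups place these levels. Hspa2 stood at 21.6, 28.6 and 61.0 FPKM in KIT cells at P7, P12 and P14, and at 20.8, 17.1 and 706 FPKM in THY1 cells at the same ages. Ldhc stood at 0.805, 1.88 and 31.9 FPKM in KIT cells and at 2.53, 4.54 and 1409 FPKM in THY1 cells. The pachytene regulators had a median log2 difference, KIT minus THY1, of 0.03 at P7, 0.54 at P12 and -1.24 at P14. Stra8 was higher in KIT cells at each age, at 106, 192 and 251 FPKM in KIT cells and at 39.7, 32.0 and 35.0 FPKM in THY1 cells. Over the 11 groups the genes with levels most like those of Stra8 included C330027C09Rik (r 0.940), Snx14 (0.939), Slc17a7 (0.935) and Zfp597 (0.933), of which C330027C09Rik and Slc17a7 were higher by 2-fold or more in P14 KIT cells.

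The genes that keep stem cells renewing had lower levels in P14 KIT cells. Of 21 genes 13 were lower by 2-fold or more, 6 of them past 4-fold, and none was 2-fold higher, with a median log2 difference of -1.31 at P14, -0.73 at P12 and -1.17 at P7. Gfra1 and Ret, the receptor pair for GDNF, stood at 0.992 and 1.23 FPKM in P14 KIT cells and at 16.6 and 21.3 FPKM in P14 THY1 cells. Id4, an inhibitor of helix-loop-helix factors that marks stem cells, stood at 2.85 FPKM in P14 KIT cells and at 49.1 FPKM in P14 THY1 cells. In THY1 cells at P7 and P12 Id4 stood at 29.6 and 12.6 FPKM, so its level was highest at P14. Gfra1, at 29.0 and 23.2 FPKM, and Ret, at 39.8 and 24.2 FPKM, were lowest in THY1 cells at P14. The source of the P14 Id4 level was not tested. Tcl1 (log2 difference -2.99), Egr4 (-2.63) and Dusp6 (-2.11) were past 4-fold too. Of 18 progenitor genes 6 were 2-fold lower and 2 were 2-fold higher. Nanos3, a translational repressor of early germ cells, stood at 2.46 FPKM in P14 KIT cells and at 19.6 FPKM in P14 THY1 cells, whereas Taf4b, a transcription cofactor, stood at 78.1 FPKM in P14 KIT cells and at 26.6 FPKM in P14 THY1 cells.

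Genes of differentiating spermatogonia were higher in P14 KIT cells: 8 of 14 by 2-fold or more, 3 past 4-fold, and none 2-fold lower (median log2 difference 1.12). The list holds Kit, the marker of the selection, and Stra8. Rhox13, an X-linked homeobox gene, stood at 99.0 FPKM in P14 KIT cells and at 23.6 FPKM in P14 THY1 cells, and Crabp1, which binds retinoic acid, at 249 FPKM in P14 KIT cells and at 81.2 FPKM in P14 THY1 cells. Esx1 (1.52), Lmo1 (1.37), Scml2 (1.17) and Dnmt3b (1.06) were past 2-fold. The retinoic acid list went both ways, with 4 of 19 genes higher by 2-fold or more and 4 lower. Aldh1a1, which makes retinoic acid, stood at 479 FPKM in P14 KIT cells and at 139 FPKM in P14 THY1 cells. Cyp26b1, which breaks it down, stood at 16.3 FPKM in P14 KIT cells and at 50.7 FPKM in P14 THY1 cells, and Rdh11, a retinal reductase, at 14.3 FPKM in P14 KIT cells and at 113 FPKM in P14 THY1 cells. In P7 ID4-GFP cells Aldh1a1 stood at 2.99 FPKM and Cyp26b1 at 0.660 FPKM, against 270 and 29.5 FPKM in P7 KIT cells and 154 and 5.99 FPKM in P7 THY1 cells. Which cells held these transcripts at P14 was not tested.

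Genes of cell division and DNA replication were moderately higher in P14 KIT cells. Of 23 mitotic cell cycle genes 9 were higher by 2-fold or more and none lower (median log2 difference 0.90), and of 22 replication genes 10 were 2-fold higher and none lower (0.93), with none past 4-fold in either list. Ccne2, a cyclin of the start of S phase, stood at 188 FPKM in P14 KIT cells and at 71.2 FPKM in P14 THY1 cells, and Rrm2, a subunit of ribonucleotide reductase, at 63.4 FPKM in P14 KIT cells and at 15.8 FPKM in P14 THY1 cells. Of 17 DNA methylation genes 3 were 2-fold higher, led by Hells, a chromatin remodeller, at 328 FPKM in P14 KIT cells and 104 FPKM in P14 THY1 cells. Of 14 histone variant genes 3 were higher by 2-fold or more, 3 were 2-fold lower and 1 of these was past 4-fold, with a median log2 difference of 0.16. Hist1h2ba, a testis H2B variant and the most abundant gene of the lists, was level at 8841 FPKM in P14 KIT cells and 8956 FPKM in P14 THY1 cells, while its H2A partner Hist1h2aa stood at 7092 FPKM in P14 KIT cells and at 2689 FPKM in P14 THY1 cells, and H2afx, the histone phosphorylated at DNA breaks, at 1877 FPKM in P14 KIT cells and 793 FPKM in P14 THY1 cells. H2afy, a macroH2A gene, went the other way, at 25.1 FPKM in P14 KIT cells and 99.6 FPKM in P14 THY1 cells, and so did H2afy2 (log2 difference -1.42). Clustered histone genes can share reads with near-identical copies, and their values are uncertain.

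X-linked genes and their autosomal copies mostly differed in opposite directions, though several of the differences were small. Such copies are known to stand in for the X-linked genes in meiotic cells while the X chromosome is silent. Of 13 autosomal copies 11 were lower in P14 KIT cells, 8 by 2-fold or more and 4 past 4-fold (median log2 difference -1.10), while of the 13 X-linked genes 11 were higher, 3 by 2-fold or more (median 0.47). Over all genes 4.61% were 2-fold higher and 9.34% 2-fold lower. Counts at any size include differences near 0. Among the higher X-linked genes were Slc25a5 (0.00), Rpl10 (0.12) and G6pdx (0.17), and among the lower copies G6pd2 (-0.05) and Ubl4b (-0.04). Cetn1, a centrin of the flagellum base, stood at 5.36 FPKM in P14 KIT cells and at 212 FPKM in P14 THY1 cells, and its X-linked relative Cetn2 at 48.7 FPKM in P14 KIT cells and at 23.4 FPKM in P14 THY1 cells. Pdha2, of the pyruvate dehydrogenase complex, stood at 15.4 FPKM in P14 KIT cells and at 149 FPKM in P14 THY1 cells. Its X-linked counterpart Pdha1 was also lower in P14 KIT cells, at 11.4 FPKM, against 21.2 FPKM in P14 THY1 cells. Ddx3x was the other X-linked gene that was lower, with a log2 difference of -0.50. Fam50b stood at 1.39 FPKM in P14 KIT cells and 44.5 FPKM in P14 THY1 cells. Rpl10 and Pgk1 were listed under 1 FPKM in both groups, where many near-identical copies make a value uncertain, and Ubl4b was under 0.1 FPKM. Utp14b and Slc25a31 were the autosomal copies that were higher in P14 KIT cells, with log2 differences of 0.81 and 0.50.

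**Figure D4:**
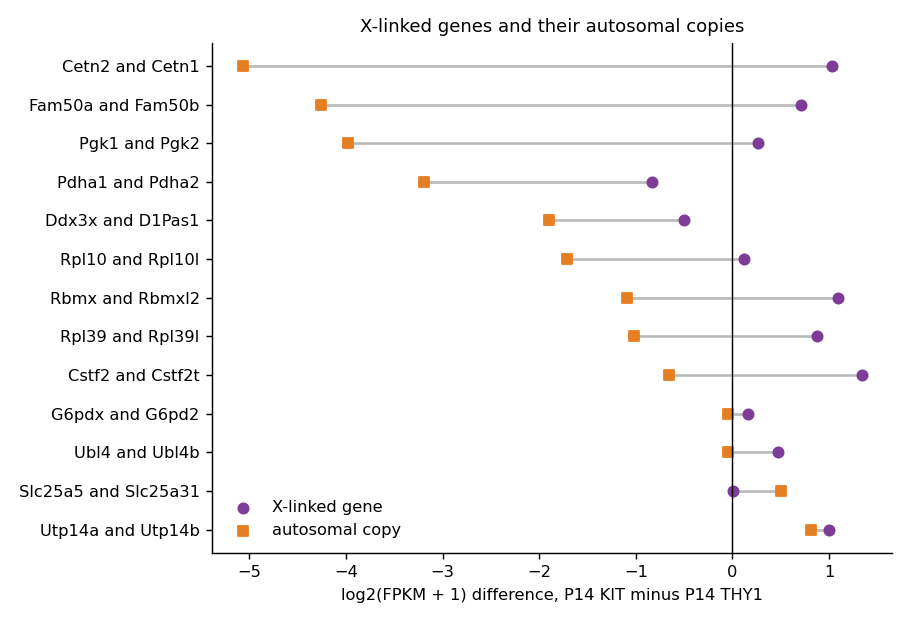
Log2(FPKM + 1) difference, P14 KIT minus P14 THY1, of 13 X-linked genes (purple circles) and their autosomal copies (orange squares), a line joining each pair. In 12 of the 13 pairs the X-linked gene lies to the right of its copy, and the 4 widest gaps are Cetn1, Fam50b, Pgk2 and Pdha2.

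The starts of the lower genes were searched for short motifs, because MYBL1 and RFX2 are known in the mouse as activators of pachytene and flagellum genes. Promoter windows of 300 bases, from 250 before to 50 after each gene's start, came from RefSeq on build GRCm38.p6 and matched 501 of the 661 lower genes and 35 of the 42 higher ones. The MYB motif AACNGNC, on either strand, was present for 263 of the 501 lower genes (52.5%), for 13 of the 35 higher genes (37.1%), and for 35.7% of all 16372 genes with a window. Of all 32851 windows 32.8% held it. Every lower gene reached 5 FPKM in a P14 group, and of the 8140 genes with a window that did so 38.8% held the motif. Of the 9 lists searched, the share was 68.8% of 16 piRNA genes, 63.9% of 36 axoneme genes and 41.2% of 17 acrosome genes, and 35.7% of 14 pachytene regulators. It was also 58.8% of 17 DNA replication genes and 50% of 12 genes of strand exchange, lists that were higher or went both ways. It was 38.5% of 26 glycolysis and lactate genes, 38.5% of 13 differentiating and 33.3% of 15 self-renewal genes. The RFX motif GTTNCCATG was present for 25 of the 501 lower genes (4.99%), for none of the 35 higher genes, for 1.89% of all genes with a window and for 1.77% of those that reached 5 FPKM, and 1.93% of all windows held it. CRE (TGACGTCA) was present for 2.40% of the lower genes, 2.71% of all genes and 3.94% of those that reached 5 FPKM. For E2F (TTTCCCGC) these shares were 1.60%, 1.72% and 2.73%, and for the E-box (CACGTG) 10.8%, 9.46% and 12.6%. Of the 16 piRNA genes 8 held the E-box. MYB matches shared bases with RFX matches in 3 of the 628 windows of the lower genes and with the other motifs in none. A match is a run of letters and was not tested as a bound site, and a base composition that differs between gene sets would move these shares as well.

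Windows of 6 genes are printed because they span the stages that differed: a gene for piRNAs, a chaperone, a metabolic isoform and a flagellum gene that were lower, an RFX example of a dynein gene that was lower, and the meiotic entry gene Stra8 that was higher. Capitals mark MYB matches in the first 5 and the RFX motif in Dnali1, and the sequences are from RefSeq, GRCm38.p6, read along the gene's strand.
Piwil1, chr5:128735996-128736295, plus strand: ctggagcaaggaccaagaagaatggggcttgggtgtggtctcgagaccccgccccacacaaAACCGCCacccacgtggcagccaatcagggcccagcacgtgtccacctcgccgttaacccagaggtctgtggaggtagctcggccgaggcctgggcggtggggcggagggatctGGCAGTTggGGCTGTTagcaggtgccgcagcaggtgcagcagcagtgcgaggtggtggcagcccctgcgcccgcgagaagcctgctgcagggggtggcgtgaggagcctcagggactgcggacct
Hspa2, chr12:76404120-76404419, plus strand: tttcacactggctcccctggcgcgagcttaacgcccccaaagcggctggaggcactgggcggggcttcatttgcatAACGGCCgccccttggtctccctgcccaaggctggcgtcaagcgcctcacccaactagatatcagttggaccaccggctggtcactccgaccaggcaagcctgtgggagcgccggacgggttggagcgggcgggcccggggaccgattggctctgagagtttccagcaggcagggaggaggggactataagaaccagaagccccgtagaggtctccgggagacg
Ldhc, chr7:46861013-46861312, plus strand: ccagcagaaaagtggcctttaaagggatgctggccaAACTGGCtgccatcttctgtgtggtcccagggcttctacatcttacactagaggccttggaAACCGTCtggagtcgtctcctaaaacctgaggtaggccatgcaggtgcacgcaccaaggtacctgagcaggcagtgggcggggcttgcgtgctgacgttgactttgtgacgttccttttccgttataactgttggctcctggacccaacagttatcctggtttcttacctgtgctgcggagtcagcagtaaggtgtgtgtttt
Ccdc65, chr15:98707944-98708243, plus strand: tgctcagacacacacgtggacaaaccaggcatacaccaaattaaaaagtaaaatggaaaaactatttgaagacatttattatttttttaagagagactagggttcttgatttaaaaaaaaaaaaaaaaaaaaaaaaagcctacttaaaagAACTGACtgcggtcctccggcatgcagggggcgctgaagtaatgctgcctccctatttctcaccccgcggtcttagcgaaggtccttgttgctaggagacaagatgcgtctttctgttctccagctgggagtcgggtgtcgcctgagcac
Stra8, chr6:34920698-34920997, plus strand: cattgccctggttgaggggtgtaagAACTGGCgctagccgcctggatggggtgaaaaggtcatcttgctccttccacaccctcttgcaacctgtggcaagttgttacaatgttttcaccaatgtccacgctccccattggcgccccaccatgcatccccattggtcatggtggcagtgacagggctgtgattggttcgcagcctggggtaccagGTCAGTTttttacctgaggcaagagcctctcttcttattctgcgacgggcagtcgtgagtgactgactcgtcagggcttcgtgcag
Dnali1, chr4:125065608-125065907, minus strand: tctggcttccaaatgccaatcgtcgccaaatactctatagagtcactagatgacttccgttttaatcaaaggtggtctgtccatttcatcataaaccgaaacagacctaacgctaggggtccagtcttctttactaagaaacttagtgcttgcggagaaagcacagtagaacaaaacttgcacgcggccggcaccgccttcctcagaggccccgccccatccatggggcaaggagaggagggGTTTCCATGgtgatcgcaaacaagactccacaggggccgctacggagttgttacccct
Piwil1 held 3 MYB matches, Ldhc and Stra8 held 2 each, and Hspa2 and Ccdc65 held 1, so matches stood at the start of a gene that was higher as well as at genes that were lower. Dnali1, an axonemal dynein light chain, stood at 1.05 FPKM in P14 KIT cells and at 31.0 FPKM in P14 THY1 cells.

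Transcripts of other testis cells differed between the groups in both directions. Of 14 Leydig cell markers 8 were higher by 2-fold or more in P14 KIT cells, 3 of them past 4-fold, and 1 was 2-fold lower. A difference below 0 was found for 3 of the 14. Their summed levels were 755 FPKM in P14 KIT cells and 293 FPKM in P14 THY1 cells. The steroid enzyme genes Cyp17a1, Hsd3b1 and Cyp11a1 stood at 124, 98.9 and 76.3 FPKM in P14 KIT cells and at 27.8, 15.2 and 15.9 FPKM in P14 THY1 cells. Hsd3b1 is among the 10 largest differences of the higher genes, and Hsd17b3 was under 1 FPKM in both groups. Of 15 macrophage markers 11 were lower by 2-fold or more and 6 past 4-fold, with summed levels of 20.4 FPKM in P14 KIT cells and 93.7 FPKM in P14 THY1 cells. Most of the P14 KIT sum was 1 member at 14.7 FPKM, the only 1 of the 15 that was higher in P14 KIT cells. The median level was 0.257 FPKM in P14 KIT cells and 4.51 FPKM in P14 THY1 cells. Csf1r stood at 0.0674 FPKM in P14 KIT cells and 4.13 FPKM in P14 THY1 cells.

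Of 8 peritubular myoid markers 6 were lower by 2-fold or more, with Acta2 at 1.69 FPKM in P14 KIT cells and 35.8 FPKM in P14 THY1 cells, and of 11 fibroblast and stroma markers 9 were, with Col1a1 at 17.1 FPKM in P14 KIT cells and 125 FPKM in P14 THY1 cells. Of 21 Sertoli markers 10 were at 5 FPKM or more in P14 KIT cells and 9 in P14 THY1 cells. By 2-fold or more 3 were higher in P14 KIT cells and none lower. A difference below 0 was found for 14 of the 21, and the median log2 difference was -0.20. Sox9 stood at 0.174 FPKM in P14 KIT cells and 0.600 FPKM in P14 THY1 cells, and Defb19 at 122 FPKM in P14 KIT cells and 55.2 FPKM in P14 THY1 cells. The summed level of 21 markers was 339 FPKM in P14 KIT cells and 244 FPKM in P14 THY1 cells, against 1547 FPKM in P12 KIT cells and 4340 FPKM in P12 THY1 cells. Of 11 endothelial markers 1 was lower by 2-fold or more, Cdh5 at 3.93 FPKM in P14 KIT cells and 16.9 FPKM in P14 THY1 cells. T cell, mast cell and red cell markers stayed under 8 FPKM in both groups, and those of mast cells, which also carry KIT, summed to 12.2 FPKM in P14 KIT cells and 5.13 FPKM in P14 THY1 cells. Most of both sums was 1 mast cell member, Hdc, at 7.17 FPKM in P14 KIT cells and 4.47 FPKM in P14 THY1 cells. In P7 ID4-GFP cells Hdc stood at 3.94 FPKM, the whole sum of that list there.

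**Figure D5:**
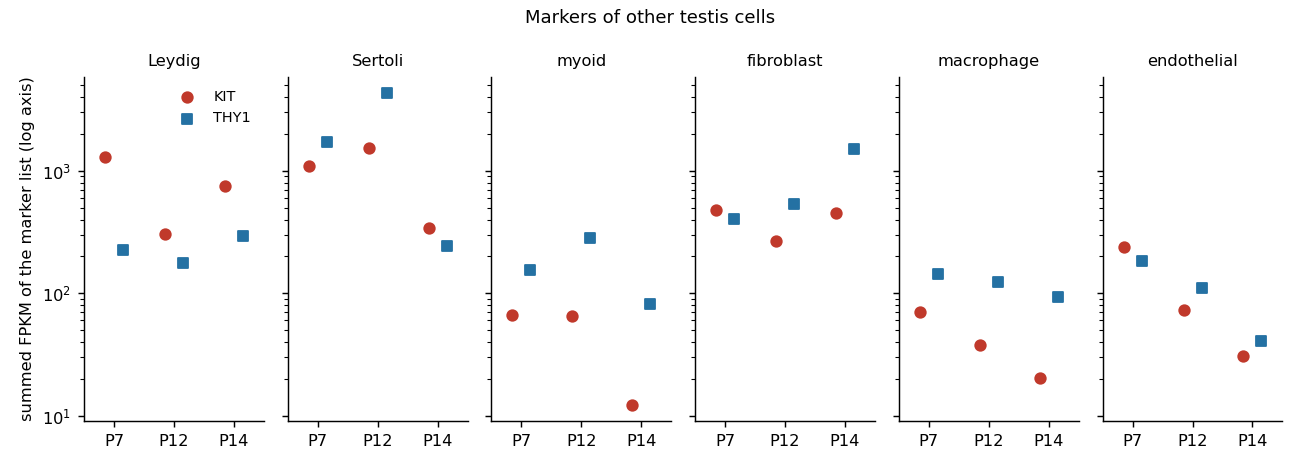
Summed FPKM, on a log axis, of the marker genes of 6 other testis cell types in KIT cells (red circles, left) and THY1 cells (blue squares, right) at P7, P12 and P14. At P14 Leydig markers sum higher in KIT (755 against 293 FPKM) and macrophage markers higher in THY1 (20.4 against 93.7 FPKM), and Sertoli markers are lower at P14 than at P12 in both.

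The part of these cells in the germ cell differences was not tested. In bulk samples, fewer cells of a type and less RNA per cell cannot be told apart. Of 20 immediate early genes, which respond to signals and handling, 4 were 2-fold lower and none higher (median log2 difference -0.71), with Egr1 at 14.9 FPKM in P14 KIT cells and 35.5 FPKM in P14 THY1 cells. Of 43 imprinted genes 8 were under 1 FPKM in both groups, 7 were 2-fold lower and 1 was higher (median -0.27). Over all genes 9.34% were 2-fold lower and 4.61% higher, the shares to set beside both lists. The largest difference of the imprinted genes was of Dcn, a stromal gene, at 94.3 FPKM in P14 KIT cells and 435 FPKM in P14 THY1 cells. Of 14 RHOX genes 8 were under 1 FPKM in both groups, and Rhox10 stood at 12.1 FPKM in P14 KIT cells and 12.9 FPKM in P14 THY1 cells.

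Some of the largest differences among the higher genes rest on a value of 0. Tex14, a protein of the bridges between germ cells, stood at 76.2 FPKM in P14 KIT cells and was listed at 0 in P14 THY1 cells, and likewise at 78.4 FPKM in P12 KIT cells and at 0 in P12 THY1 cells, although it stood at 51.7 FPKM in P7 KIT cells and 50.2 FPKM in P7 THY1 cells. 2610528E23Rik stood at 12.4 FPKM in P14 KIT cells and was listed at 0 in P14 THY1 cells. A listed 0 can be a failed estimate, and without these 2 genes 40 genes were higher. Pisd-ps1, a pseudogene, stood at 13.3 FPKM in P14 KIT cells and 0.0205 FPKM in P14 THY1 cells. Prss50, a testis protease, stood at 208 FPKM in P14 KIT cells and 35.0 FPKM in P14 THY1 cells, and Ddb2, a DNA damage sensor, at 89.3 FPKM in P14 KIT cells and 15.9 FPKM in P14 THY1 cells.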

How the data were processed

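RNA was measured in bead-enriched mouse testis cells; per the labels' protocols, ribosomal RNA was removed and the libraries keep strand. The submitters' processing notes name CASAVA, TopHat2 2.0.9, Cufflinks 2.1.1 and the build mm9, with no order or annotation. The authors deposited FPKM values in 1 table of 20889 gene symbols and 11 groups, and P14 KIT and P14 THY1 were 1 library each. The deposited FPKM carry no depth, so no interval is given. How libraries behind other columns were combined is not stated. The 14 bisulfite, chromatin and input samples were not analysed here.

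Differences of log2(FPKM + 1) were taken in pandas 2.3.3 and numpy 2.4.6 under Python 3.11.15, with scipy 1.17.1, and plotted with matplotlib 3.10.9, with the size rule given above and no test; the calculation was tested on simulated data. The 30 lists, with 530 of 540 members found in the table and 15 of them through a synonym, the pairs, motifs and members were chosen with earlier results of these data known. Named genes were Thy1, Kit and Ddx4, the 10 largest differences each way, up to 6 per list with FPKM of 5 or more, the pairs, the 4 most abundant members and up to 5 genes each most like Ldhc and Stra8, of which 1 is not reported here. Other genes that the text gives were chosen after their values were seen. The P7 and P12 groups were set beside P14 without a test.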

Additional observations from a re-analysis of the deposited data

Results flagged for a closer look

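The contrast of KIT with THY1 cells went opposite ways at P14 and P12 in several results, and these differences between ages were not tested, since each group held 1 value per gene. The pachytene regulators had a median log2 difference of -1.24 at P14 and 0.54 at P12. Ybx2, the RNA-binding protein of that list, had a difference of -3.61 at P14 and stood at 25.8 FPKM in P12 KIT cells and 8.57 FPKM in P12 THY1 cells. Of the Sertoli markers Inha, which encodes an inhibin subunit, had a difference of 1.13 at P14, Defb19, a defensin gene, one of 1.13 and Clu, which encodes clusterin, one of 1.13. These 3 were the only Sertoli markers that were 2-fold higher at P14. The median over the 21 was -0.20, and 14 were below 0. At P12 Inha stood at 40.2 FPKM in KIT cells and 124 FPKM in THY1 cells, Defb19 at 231 FPKM in KIT cells and 724 FPKM in THY1 cells, and Clu at 372 FPKM in KIT cells and 900 FPKM in THY1 cells. The cause was not tested.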

How the results depend on the processing

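No paired analysis was possible because each P14 group held 1 library. The number of lower genes, 661, was 804 with a pseudocount of 0.1, 679 with no minimum, 584 under quantile normalization and 714 centred on the median difference. It was 808 with P12 THY1 in the place of P14 THY1, but only 60 of the 661 were among them, and 696 with P12 KIT in the place of P14 KIT, 539 of them shared. It was 315 with a pseudocount of 5, 183 with FPKM of 5 or more in both groups, 292 at 8-fold and 1569 at 2-fold with the minimum. The 42 higher genes numbered 75 with a pseudocount of 0.1, 15 with one of 5, 27 with FPKM of 5 or more in both groups, 3 at 8-fold, 859 at 2-fold with the minimum, 150 against P12 THY1, 26 of them shared, and 278 with P12 KIT, 10 of them shared. Of the list medians, that of the imprinted genes changed sign under quantile normalization, to 0.0115, and so did that of the retinoic acid genes, -0.04, to 0.0344, and to 0.574 over members with a mean FPKM of at least 1. Medians moved by 0.25 or more in 11 of 30 lists with a pseudocount of 0.1 and in 5 with that minimum. Under quantile normalization they did so in 1 list besides the imprinted genes. The 42 higher genes numbered 60 under quantile normalization, 41 of them shared, and 30 centred on the median difference. Kit, Rhox13, Mei1 and Crabp2 were among those that centring took just under 4-fold. Counting windows and not genes gave 47.0% of lower windows with the MYB motif. The causes were not tested. With 1 library a group and unknown depth, low values and differences near a threshold are the least certain.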

Other observations

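Gene families chosen after their values were seen gave further differences, here over every member of a family in the table. Over all genes, 4.61% were higher and 9.34% lower by 2-fold or more, and 0.201% were counted as higher and 3.16% as lower at 4-fold. Of 59 clustered histone genes, 23 were higher in P14 KIT cells and 7 lower by 2-fold or more, with a median log2 difference of 0.73. The linker histone gene Hist1h1a stood at 12401 FPKM in P14 KIT cells and 2774 FPKM in P14 THY1 cells, and Hist1h2bm at 3025 FPKM in P14 KIT cells and 569 FPKM in P14 THY1 cells. Hist2h2ab went the other way, at 5.23 FPKM in P14 KIT cells and 48.0 FPKM in P14 THY1 cells. Of 20 MAGE genes, of which 5 were under 1 FPKM in both groups, 6 were 2-fold higher in P14 KIT cells and none 2-fold lower, with a median of 0.16. Magea4 stood at 13.4 FPKM in P14 KIT cells and 1.92 FPKM in P14 THY1 cells.

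Of 32 ADAM genes, 16 were under 1 FPKM in both groups and 7 were counted as lower, namely Adam1b, Adam2, Adam3, Adam5, Adam18, Adam30 and Adam32, and the median over the family was 0.00. Adam5 stood at 3.12 FPKM in P14 KIT cells and 149 FPKM in P14 THY1 cells, while the widely expressed Adam10 stood at 23.9 FPKM in P14 KIT cells and 13.4 FPKM in P14 THY1 cells. Of 8 RFX factors 3 were counted as lower, Rfx2, Rfx4 and Rfx8, with a median of -0.34, and Rfx4 stood at 0.654 FPKM in P14 KIT cells and 15.3 FPKM in P14 THY1 cells. Of 93 ribosomal protein genes 2 were 2-fold higher and 3 lower (median 0.20), and of 85 genes of oxidative phosphorylation 2 were 2-fold higher and 6 lower (median 0.04). Of 1508 RIKEN clone genes 107 were counted as lower (7.10%) and 2 as higher, and 606 were under 1 FPKM in both groups.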
